A study of Capra hircus with 6 samples.

Results

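Messenger RNA of 10 target genes of the TEAD transcription factors, AMOTL1, AMOTL2, AJUBA, FRMD6, PTPN14, AXL, CRIM1, FJX1, NUAK2 and ANKRD1, was followed in goat (Capra hircus) adipose mesenchymal stem cells that overexpress TAZ and in wild-type control cells. The genes were taken by symbol, as commonly used TEAD targets that lie outside the CCN family of matricellular growth factors, and all 10 were found among the 16262 named genes of the tables. The 10 genes were chosen with earlier results of these data known. The tested samples are 3 libraries labelled as overexpressing TAZ, and the controls are 3 libraries of wild-type (WT) genotype. Every library, control libraries included, is labelled as adipogenic differentiation. The labels do not give the expression construct, the species of the TAZ sequence, whether the controls carried an empty vector, the time in differentiation medium, or whether the replicates came from separate cultures, animals or clones. P-values therefore rest on the spread among these libraries only, and that spread may be technical. TNF-α stands in the series title and in none of the sample labels.

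TAZ, encoded by WWTR1, and its paralog YAP are coactivators that do not bind DNA themselves. They enter the nucleus when the Hippo kinases are inactive, and there they bind TEAD factors and switch on target genes. Some targets encode proteins that act back on the pathway, among them the angiomotin-like proteins AMOTL1 and AMOTL2 and the phosphatase PTPN14, which hold YAP and TAZ outside the nucleus. In mesenchymal stem cells TAZ is known as a coactivator of RUNX2 and a repressor of PPARG, the master regulator of the fat cell.

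Values are FPKM, fragments scaled to gene length and to the size of the library, so they are already per length and can be compared between genes. Library totals, recovered from the steps between low values, ran from 17035481 to 18852822 fragments in the TAZ libraries and from 16935698 to 17483995 in the controls. For a tested gene of median length, 1 FPKM was worth 52.2 fragments. Groups are described by their mean FPKM ± SD (n = 3 libraries each). Each log2 fold change is the mean of log2(FPKM + 1) in the TAZ libraries minus that in the controls, given with its 95% interval. The added 1 makes the fold changes of low genes too small. Genes were tested with limma if they had at least 1 FPKM in at least 3 of the 6 libraries, and a gene passed at a Benjamini-Hochberg adjusted p under 0.05 over all 10750 tested genes.

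The cells expressed the stromal markers listed for them, with 10 of 10 above the filter, of which PDGFRB, LUM and DCN rose, ENG, THY1 and VIM fell and 4 did not pass. Of 8 fat cell markers 6 stayed under 1 FPKM in every library, including PPARG and ADIPOQ. Of the other 2, CIDEC stood at 16.6 to 19.1 FPKM in the TAZ libraries and 16.8 to 19.3 FPKM in the controls and did not pass, and LIPE rose to 2.13 ± 0.111 FPKM in the TAZ libraries, against 1.01 ± 0.114 FPKM in the controls (limma adjusted p = 0.000168). The 5 endothelial and 5 skeletal muscle markers found in the tables were under 1 FPKM in every library, as were 5 of 6 epithelial markers, and KDR and the leukocyte marker PTPRC were at 0 throughout. Among 6 leukocyte markers CD14 was higher in the TAZ libraries and CD68 lower, and the summed level of the list was 26.7 to 27.7 FPKM in the TAZ libraries and 13.4 to 16.4 FPKM in the controls. The smooth muscle and pericyte markers summed to 183 to 249 FPKM in the TAZ libraries and 366 to 582 FPKM in the controls, a difference carried by ACTA2, while MYH11, RGS5, MCAM and DES were under 1 FPKM in every library. The part of these marker differences in the results below was not tested. In bulk libraries fewer cells of a type and less RNA per cell cannot be told apart.

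WWTR1 stood at 84.6, 118 and 84.2 FPKM in TAZ replicates 1, 2 and 3 and at 30.2, 29.9 and 35.9 FPKM in control replicates 1, 2 and 3. The groups did not overlap, and TAZ replicate 2 was the highest library (log2 fold change 1.54, limma adjusted p = 6.91e-07). Of the TEAD genes, which encode the DNA-binding partners, TEAD4 rose to 13.2 ± 1.32 FPKM in the TAZ libraries, against 10.5 ± 0.686 FPKM in the controls (limma adjusted p = 0.0347). TEAD2 fell to 18.03 ± 1.47 FPKM in the TAZ libraries, against 23.1 ± 1.78 FPKM in the controls (limma adjusted p = 0.013). TEAD1 and TEAD3 did not pass, at 9.44 ± 1.41 and 32.2 ± 1.599 FPKM in the TAZ libraries and 8.62 ± 1.42 and 31.2 ± 2.23 FPKM in the controls, and neither did YAP1. The call of TEAD4 was lost with no filter, with the replicate number as a block, and without TAZ replicate 2 or 3 or control replicate 1 or 3, at limma adjusted p-values from 0.0621 to 0.148, and that of TEAD2 without TAZ replicate 1 or control replicate 2 (0.0598 and 0.0508).

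The target genes moved in both directions, and all moves but that of NUAK2 were small in ratio. The other target genes that passed had ratios of group means from 0.718 (FJX1) to 1.31 (FRMD6). Their absolute log2 fold changes lay between percentiles 66.8 (AXL) and 81.2 (FJX1) of all tested genes. ANKRD1 was under the filter, so 9 of the 10 were tested. Of these 9, NUAK2 and FRMD6 rose, AMOTL1, AMOTL2, AXL and FJX1 fell, and AJUBA, CRIM1 and PTPN14 did not pass. Over all tested genes 37.9% passed, 15.7% higher and 22.1% lower, beside which stand 6 of 9 members that passed, 2 higher and 4 lower. The median log2 fold change of the 9 was 0.12, against -0.05 over all tested genes. That median is the value of PTPN14. The median was 0.017 without TAZ replicate 1, 0.028 without TAZ replicate 2, 0.023 without control replicate 1 and 0.0077 without control replicate 2. It was 0.07 with no filter and -0.31 with the stricter filter, which left 7 members. Under quantile normalization it was 0.085. Among the settings that raised it were median-ratio scaling (0.162) and rescaling without the top 50 genes (0.158). Without TAZ replicate 3 it was 0.129, and without control replicate 3 it was 0.132. In 3 members every TAZ library lay above every control, and in 4 every TAZ library lay below; over all tested genes this held for 19.7% and 28.7%, or 48.4% in either direction. With so few members these counts and shares are a description.

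**Figure D1:**
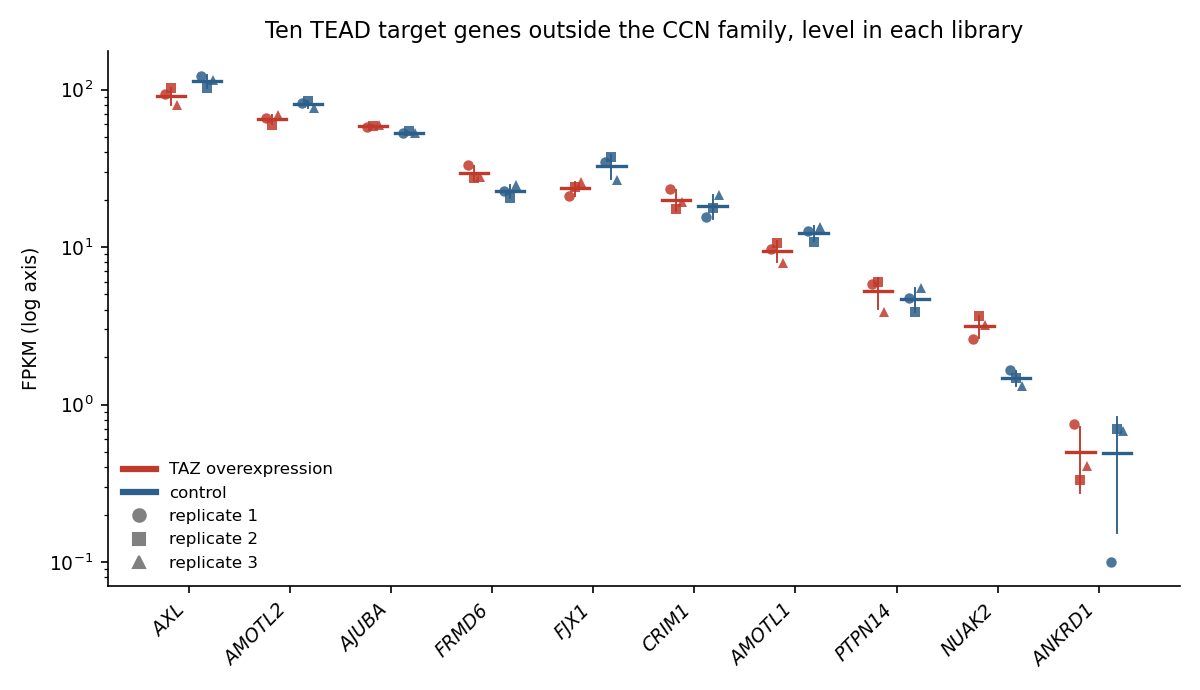
Level of each of the 10 target genes in FPKM (log axis), ordered by the mean in the TAZ libraries; symbols are the 3 libraries of TAZ overexpression (left of each pair) and of control (right), horizontal bars the group means and vertical lines ± 1 SD. NUAK2 shows the widest gap between the groups, and ANKRD1 is the only gene under 1 FPKM in every library.

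The levels spanned more than 2 orders of magnitude on the FPKM scale. In the TAZ libraries AXL was highest, followed by AMOTL2, AJUBA, FRMD6, FJX1, CRIM1, AMOTL1, PTPN14, NUAK2 and ANKRD1. The order in the controls was the same except that FJX1 stood above FRMD6. The ranges over libraries of neighbours in this order overlapped in the TAZ libraries for AMOTL2 with AJUBA and for FJX1 with CRIM1, and in the controls for FRMD6 with CRIM1. No other neighbours overlapped. AXL reached the 93.8th percentile of mean FPKM over all tested genes and NUAK2 the 12.4th.

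AMOTL2 and AMOTL1 encode scaffolds of cell junctions that bind YAP and TAZ, and both genes fell. AMOTL2 had 65.8, 59.6 and 68.8 FPKM in the TAZ libraries, against 81.6, 84.4 and 76.5 FPKM in the controls. No TAZ library reached the lowest control, and the ratio of group means was 0.801 (64.7 ± 4.68 against 80.8 ± 4.03 FPKM, log2 fold change -0.32 with SE 0.085, limma adjusted p = 0.0106). AMOTL1 had 9.75, 10.7 and 7.87 FPKM in the TAZ libraries, against 12.7, 10.8 and 13.4 FPKM in the controls. The highest TAZ library and the lowest control were almost equal, and the ratio of means was 0.766 (9.43 ± 1.42 against 12.3 ± 1.34 FPKM, log2 fold change -0.36 with SE 0.12, limma adjusted p = 0.0299). The call of AMOTL1 was lost under median-ratio scaling and rescaling without the top 50 genes, with no filter, and without TAZ replicate 3 or control replicate 1 or 3 (limma adjusted p from 0.0524 to 0.153). That of AMOTL2 was lost without TAZ replicate 2 (limma adjusted p = 0.0501).

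The ratio of AMOTL2 to AMOTL1 FPKM was 7.02 ± 1.59 in the TAZ libraries and 6.65 ± 1.07 in the controls (n = 3 libraries each, exact permutation p = 0.8, two-sided, 0.8 adjusted over 6 paralog and partner ratios), so the difference in ratio was smaller than the spread between libraries. The third angiomotin gene, AMOT, was barely present. It had 0.5, 1.5 and 0.5 fragments in the TAZ libraries, against 18.5, 26.5 and 29 fragments in the controls, where 0.5 stands for the smallest step in the values. AMOT was under the filter, and in a fit with no filter it passed (limma adjusted p = 0.00115). Among the 5271 genes that were above 0 but under the filter, every TAZ library lay below every control for 14% and above for 10.6%.

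AJUBA encodes a LIM-domain scaffold that binds the LATS kinases and restrains them. It had 58.0, 58.7 and 59.9 FPKM in the TAZ libraries, against 53.1, 54.2 and 52.6 FPKM in the controls. All 3 TAZ libraries lay above all 3 controls and the libraries were tightly grouped, at 58.9 ± 0.977 against 53.3 ± 0.811 FPKM. The gene did not pass (log2 fold change 0.14 with SE 0.077, interval -0.02 to 0.31, limma adjusted p = 0.166). Its within-group SD of 0.0225 log2 units was at the 0.242th percentile of all tested genes, whose median was 0.12, and limma's moderated error draws such low spreads towards those of genes of like level. AJUBA did not pass under any of the 17 alternative settings (limma adjusted p from 0.063 to 0.402). The interval is compatible with no change and with a rise to 1.24 times the control level on the FPKM + 1 scale. Its paralogs LIMD1 and WTIP did not pass either, at 7.08 ± 1.61 and 8.83 ± 0.501 FPKM in the TAZ libraries and 8.04 ± 1.69 and 7.98 ± 0.888 FPKM in the controls.

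FRMD6 encodes a FERM-domain protein, the mammalian relative of Drosophila Expanded, which acts upstream of the Hippo kinases. It had 33.2, 27.4 and 27.9 FPKM in the TAZ libraries, against 22.6, 20.4 and 24.8 FPKM in the controls. Every TAZ library exceeded every control, with TAZ replicate 1 the highest (29.5 ± 3.22 against 22.6 ± 2.20 FPKM, log2 fold change 0.37 with SE 0.10, limma adjusted p = 0.0122). The call was lost without TAZ replicate 1 or control replicate 2 (limma adjusted p = 0.0612 and 0.0541).

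Merlin and Kibra work at the same step of the pathway as FRMD6, and their genes went different ways. NF2, which encodes Merlin, fell to 17.0 ± 1.48 FPKM in the TAZ libraries, against 20.8 ± 1.75 FPKM in the controls (limma adjusted p = 0.0356), a call that 7 of the 17 alternative settings lost. The ratio of FRMD6 to NF2 FPKM was 1.75 ± 0.306 in the TAZ libraries and 1.09 ± 0.102 in the controls, without overlap (n = 3 libraries each, exact permutation p = 0.1, the smallest this design allows, 0.15 adjusted over 6 ratios). WWC1, which encodes Kibra, fell to 8.81 ± 1.28 FPKM in the TAZ libraries, against 12.8 ± 1.71 FPKM in the controls (limma adjusted p = 0.00576). Its paralog WWC2 rose to 11.1 ± 0.535 FPKM in the TAZ libraries, against 6.52 ± 0.447 FPKM in the controls (limma adjusted p = 7.25e-05), and WWC3 did not pass (13.2 ± 1.22 against 14.6 ± 2.10 FPKM).

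PTPN14 encodes a nonreceptor tyrosine phosphatase that binds YAP. It had 5.83, 5.96 and 3.88 FPKM in the TAZ libraries, against 4.73, 3.86 and 5.52 FPKM in the controls. The groups overlapped, and 1 library of each group, TAZ replicate 3 and control replicate 2, stood near 3.9 FPKM. The gene did not pass (5.22 ± 1.17 against 4.70 ± 0.831 FPKM, log2 fold change 0.12 with SE 0.15, interval -0.20 to 0.43, limma adjusted p = 0.556). Its spread within groups was at the 97th percentile of tested genes, and its log2 fold change ran from 0.0077 without control replicate 2 to 0.28 without TAZ replicate 3, neither of which passed (limma adjusted p = 0.978 and 0.129). PTPN21, its closest paralog, fell to 9.25 ± 0.961 FPKM in the TAZ libraries, against 12.2 ± 0.856 FPKM in the controls (limma adjusted p = 0.0119; 0.0577 without TAZ replicate 2). The ratio of PTPN14 to PTPN21 FPKM was 0.569 ± 0.146 in the TAZ libraries and 0.384 ± 0.0424 in the controls (n = 3 libraries each, exact permutation p = 0.1, 0.15 adjusted over 6 ratios). The lowest TAZ ratio (0.423, replicate 3) and the highest control ratio (0.421, replicate 3) were almost equal.

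AXL encodes a receptor tyrosine kinase of the TAM family, which takes up signals from GAS6 and is a surface protein of many mesenchymal cells. It had 93.7, 101.7 and 79.3 FPKM in the TAZ libraries, against 122, 101.9 and 115 FPKM in the controls. The groups did not overlap, but TAZ replicate 2 and control replicate 2 were almost equal, and the ratio of means was 0.809 (91.5 ± 11.4 against 113 ± 10.4 FPKM, log2 fold change -0.31 with SE 0.10, limma adjusted p = 0.0339). Among the members' calls this one was lost in the most alternatives. Of the 17 alternative settings 8 lost it, namely median-ratio scaling, rescaling without the top 50 genes, quantile normalization, no filter, and leaving out TAZ replicate 1 or 3 or control replicate 1 or 3, at limma adjusted p-values from 0.051 to 0.166.

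The other receptors and ligands of the family were much lower. TYRO3 fell to 3.66 ± 0.332 FPKM in the TAZ libraries, against 7.52 ± 0.143 FPKM in the controls (log2 fold change -0.87 with SE 0.096, limma adjusted p = 1.15e-05), and this call held in all 17 alternatives. MERTK was under 0.05 FPKM in every library. PROS1, which encodes the ligand protein S, fell to 1.82 ± 0.112 FPKM in the TAZ libraries, against 2.68 ± 0.654 FPKM in the controls (limma adjusted p = 0.0313), a call lost in 7 of 16 alternatives. GAS6 was under the filter at 0.598 ± 0.105 FPKM in the TAZ libraries and 1.09 ± 0.207 FPKM in the controls, and passed in a fit with no filter (limma adjusted p = 0.0202), but not when any 1 of 5 of the libraries was left out (adjusted p from 0.0562 to 0.0778). The ratio of AXL to TYRO3 FPKM was 25.3 ± 4.55 in the TAZ libraries and 15.1 ± 1.65 in the controls (n = 3 libraries each, exact permutation p = 0.1, 0.15 adjusted over 6 ratios).

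CRIM1 encodes a transmembrane protein with cysteine-rich repeats of the chordin type that binds bone morphogenetic proteins. It had 23.2, 17.4 and 19.2 FPKM in the TAZ libraries, against 15.5, 17.6 and 21.5 FPKM in the controls. The groups overlapped, with TAZ replicate 1 the highest library and control replicate 1 the lowest. The gene did not pass (19.9 ± 3.003 against 18.2 ± 3.04 FPKM, log2 fold change 0.13 with SE 0.13, interval -0.15 to 0.40, limma adjusted p = 0.462). Its log2 fold change ran from 0.017 without TAZ replicate 1 to 0.25 without control replicate 3, neither of which passed (limma adjusted p = 0.938 and 0.109). Of the secreted proteins with such repeats, BMPER, CHRD and KCP were found in the tables, all under 0.2 FPKM in every library. BMPER had 1, 0 and 0.5 fragments in the TAZ libraries, against 10.5, 9.5 and 9 fragments in the controls, and passed in a fit with no filter (limma adjusted p = 0.000193).

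FJX1 is the mammalian relative of Drosophila four-jointed, a Golgi kinase that in the fly phosphorylates Fat and Dachsous cadherins. It had 21.0, 23.998 and 25.7 FPKM in the TAZ libraries, against 34.7, 37.3 and 26.5 FPKM in the controls. Every TAZ library lay below every control, although control replicate 3 was close to TAZ replicate 3. With a ratio of means of 0.718 FJX1 had the largest fall among the members (23.6 ± 2.42 against 32.8 ± 5.62 FPKM, log2 fold change -0.45 with SE 0.12, limma adjusted p = 0.0107). The call held in 16 of 17 alternatives and was lost with no filter (limma adjusted p = 0.0565).

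The cadherin genes of that system did not move together. FAT4 fell to 0.9498 ± 0.240 FPKM in the TAZ libraries, against 2.12 ± 0.330 FPKM in the controls (log2 fold change -0.68 with SE 0.12, limma adjusted p = 0.000482). DCHS1, which encodes a Dachsous cadherin that binds FAT4, rose to 17.5 ± 2.27 FPKM in the TAZ libraries, against 13.1 ± 0.819 FPKM in the controls (limma adjusted p = 0.0115; 0.0584 without TAZ replicate 2). FAT1, the most abundant of them, did not pass at 52.4 ± 8.74 FPKM in the TAZ libraries and 44.5 ± 4.27 FPKM in the controls (limma adjusted p = 0.161), and was higher past the threshold without TAZ replicate 3 (adjusted p = 0.0228).

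NUAK2 encodes an AMPK-related kinase that is activated by LKB1 and acts on actomyosin contractility. It had 2.62, 3.65 and 3.19 FPKM in the TAZ libraries, from 225, 346.5 and 296.5 fragments, against 1.65, 1.47 and 1.31 FPKM in the controls, from 145, 125.5 and 114.5 fragments. The groups were well apart, and all 3 TAZ libraries lay above all 3 controls. The ratio of means was 2.13, the largest of the members (3.15 ± 0.515 against 1.48 ± 0.166 FPKM, log2 fold change 0.74 with SE 0.11, limma adjusted p = 0.000184). On recovered fragments with limma's voom, where no constant is added to FPKM, the log2 fold change was 1.09. NUAK2 kept its call in all 16 alternatives that could be run for it, and it was the only member past an adjusted p of 0.01.

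NUAK1, the other NUAK kinase, stayed more abundant per length and showed no such difference, at 18.2 ± 2.11 FPKM in the TAZ libraries and 18.5 ± 1.93 FPKM in the controls (log2 fold change -0.02, interval -0.25 to 0.20, limma adjusted p = 0.888). The sign of this small value changed under 5 alternatives, median-ratio scaling among them. NUAK1 stood at 5.96 ± 1.70 times the NUAK2 level in the TAZ libraries and 12.7 ± 2.75 times in the controls, without overlap (n = 3 libraries each, exact permutation p = 0.1, the smallest possible, 0.15 adjusted over 6 ratios). STK11, which encodes LKB1, did not pass (15.5 ± 1.23 against 14.3 ± 1.89 FPKM, limma adjusted p = 0.419). The genes of its complex, STRADA and CAB39, and of the myosin phosphatase on which NUAK kinases act, PPP1R12A and PPP1CB, did not pass either.

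ANKRD1 encodes an ankyrin repeat protein of the sarcomere and nucleus that is abundant in heart muscle and widely used as a readout of YAP and TAZ. It was the least abundant of the 10, with 0.754, 0.334 and 0.409 FPKM in the TAZ libraries, against 0.101, 0.699 and 0.684 FPKM in the controls. These values rest on 25.5, 12.5 and 15 fragments in the TAZ libraries and on 3.5, 23.5 and 23.5 fragments in the controls, so the lowest and the highest counts fell in different groups and control replicate 1 stood below every other library. The group means were 0.499 ± 0.224 and 0.495 ± 0.341 FPKM. In the fit with no filter the log2 fold change was 0.02 (SE 0.19, interval -0.43 to 0.47, limma adjusted p = 0.954), and its sign changed when TAZ replicate 1 or control replicate 1 was left out (-0.10 and -0.18). The group means were almost equal, and the spread within each group was far larger than the difference between them. Its paralog ANKRD23 did not pass (1.53 ± 0.264 against 1.88 ± 0.418 FPKM), and ANKRD2 was under 0.4 FPKM in every library, with 1.5, 3.5 and 2 fragments in the TAZ libraries and 6, 8 and 4 fragments in the controls. ANKRD2 passed as lower in the fit with no filter (limma adjusted p = 0.0366).

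**Figure D2:**
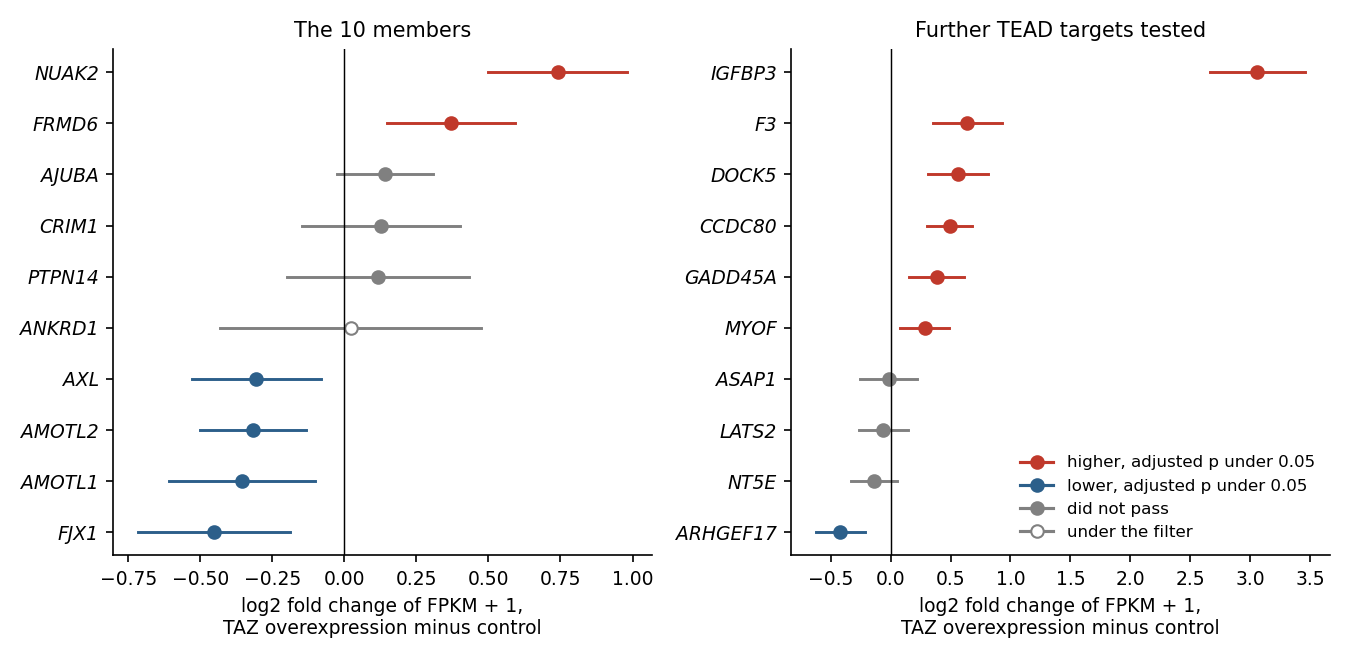
Log2 fold change of FPKM + 1, TAZ overexpression minus control, with 95% intervals, for the 10 members (left panel) and the 10 tested genes of the list of further TEAD targets (right panel, another axis range); red passed higher, blue passed lower, grey did not pass, and the open point is ANKRD1 from the fit with no filter. Members lie between -0.45 and 0.74, and IGFBP3 in the other list reaches 3.06.

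Other commonly used TEAD targets outside the CCN family were set beside the members. This list, like the members, was chosen with earlier results of these data known. Its counts and median therefore describe the list and are no independent test of TEAD targets. Of 13 such genes 10 were tested, and 6 rose, 1 fell and 3 did not pass, with a median log2 fold change of 0.33, beside 15.7% higher, 22.1% lower and a median of -0.05 over all tested genes. The members' split was 2 higher and 4 lower of 9, and the difference between the lists was not tested. IGFBP3, which encodes an insulin-like growth factor binding protein, rose to 95.4 ± 22.3 FPKM in the TAZ libraries, against 10.7 ± 3.49 FPKM in the controls (limma adjusted p = 3.04e-08). CCDC80, a secreted matrix protein gene, rose to 128 ± 10.3 FPKM in the TAZ libraries, against 90.8 ± 4.43 FPKM in the controls (limma adjusted p = 0.000591). DOCK5, which encodes a guanine nucleotide exchange factor, rose to 5.86 ± 0.920 FPKM in the TAZ libraries, against 3.62 ± 0.349 FPKM in the controls, and F3, tissue factor, to 18.5 ± 1.95 FPKM, against 11.6 ± 2.48 FPKM in the controls (limma adjusted p = 0.00193 and 0.00215). ARHGEF17 was the one that fell (10.3 ± 0.573 against 14.2 ± 1.14 FPKM, limma adjusted p = 0.00359).

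**Figure D3:**
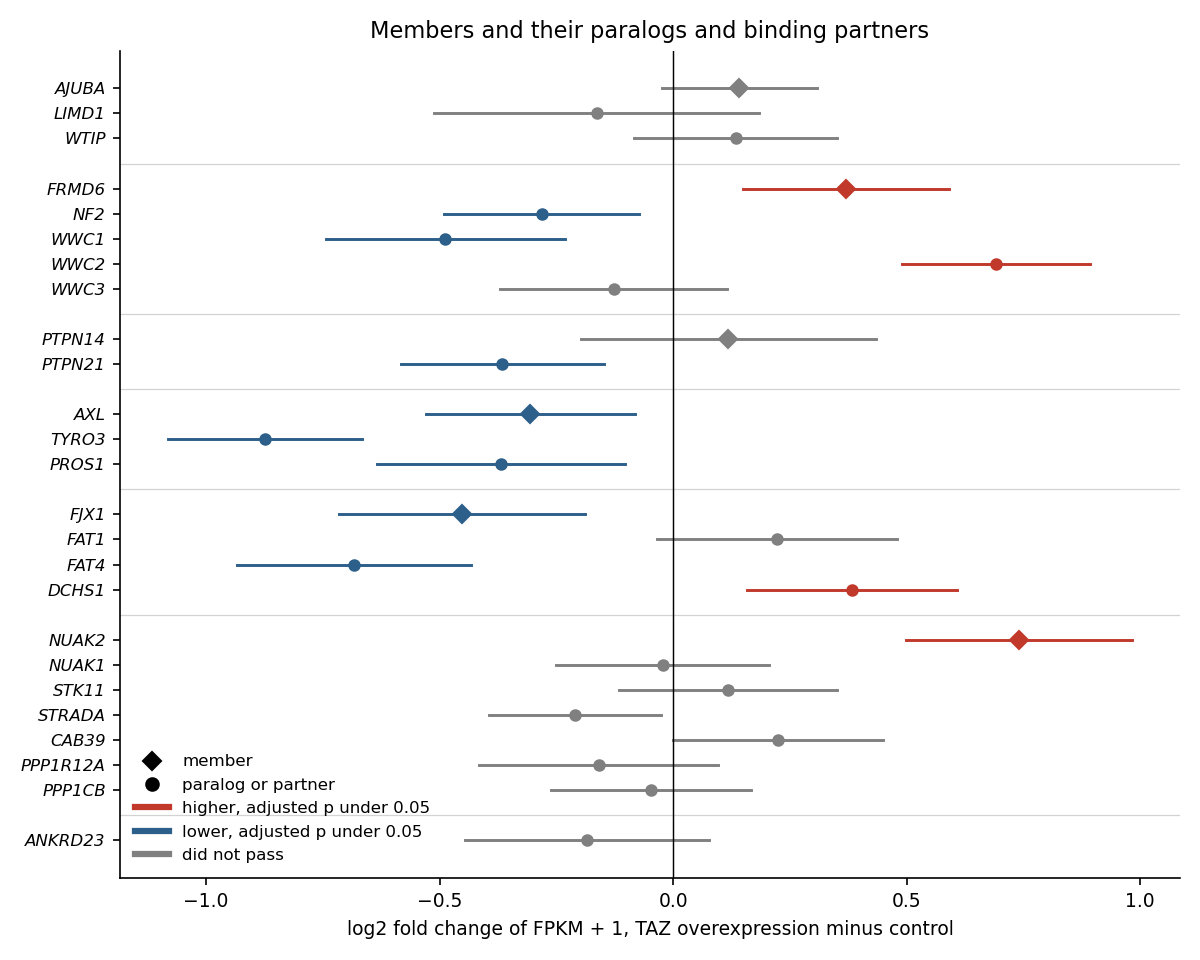
Log2 fold change of FPKM + 1, TAZ overexpression minus control, with 95% intervals, for members (diamonds) and their tested paralogs and binding partners (circles), in groups by family; red passed higher, blue passed lower and grey did not pass. In the FRMD6, FJX1, PTPN14, AJUBA and NUAK2 groups the member and at least 1 relative have estimates of opposite sign, while AXL and its 2 tested relatives all lie below 0. Only in the FRMD6 and FJX1 groups did both the member and a relative of opposite sign pass.

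The paralogs and binding partners named with the members belong to a list of 32, of which 28 were found and 19 tested. CHRDL1, CHRDL2, FAT2 and FAT3 were not found among the named genes, so they have no values here. Of the 19, 2 rose, 6 fell and 11 did not pass, which is 42.1% called, near the 37.9% over all tested genes, and the median log2 fold change was -0.16. Without TAZ replicate 2 the number called was 5.

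Within the TAZ group the members did not follow the WWTR1 level in 1 direction. In TAZ replicate 2, the library with the most WWTR1, 4 members (AMOTL1, PTPN14, AXL and NUAK2) had their highest value of the 3 libraries, 2 were in the middle and 4 (AMOTL2, FRMD6, CRIM1 and ANKRD1) had their lowest. In control replicate 3, the control with the most WWTR1, the counts were again 4, 2 and 4. With 3 libraries per group this is a description and no correlation is given.

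The genes whose log2(FPKM + 1) values over the 6 libraries ran most closely with NUAK2 were CDC42EP2, which encodes an effector of the GTPase CDC42 (Pearson r = 0.998), and PSMD3, a proteasome subunit gene (r = 0.996). CDC42EP2 had 13.7, 20.5 and 17.4 FPKM in the TAZ libraries, against 9.25, 7.92 and 7.56 FPKM in the controls. For AMOTL2 they were MIF4GD, which encodes a translation factor binding protein (r = 0.996), and MRPS21, a mitochondrial ribosomal protein gene (r = 0.994). The points share the division into groups, and 343 of 9991 genes had an r over 0.95 with NUAK2 and 244 with AMOTL2, so these are descriptions of 6 libraries.

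**Figure D4:**
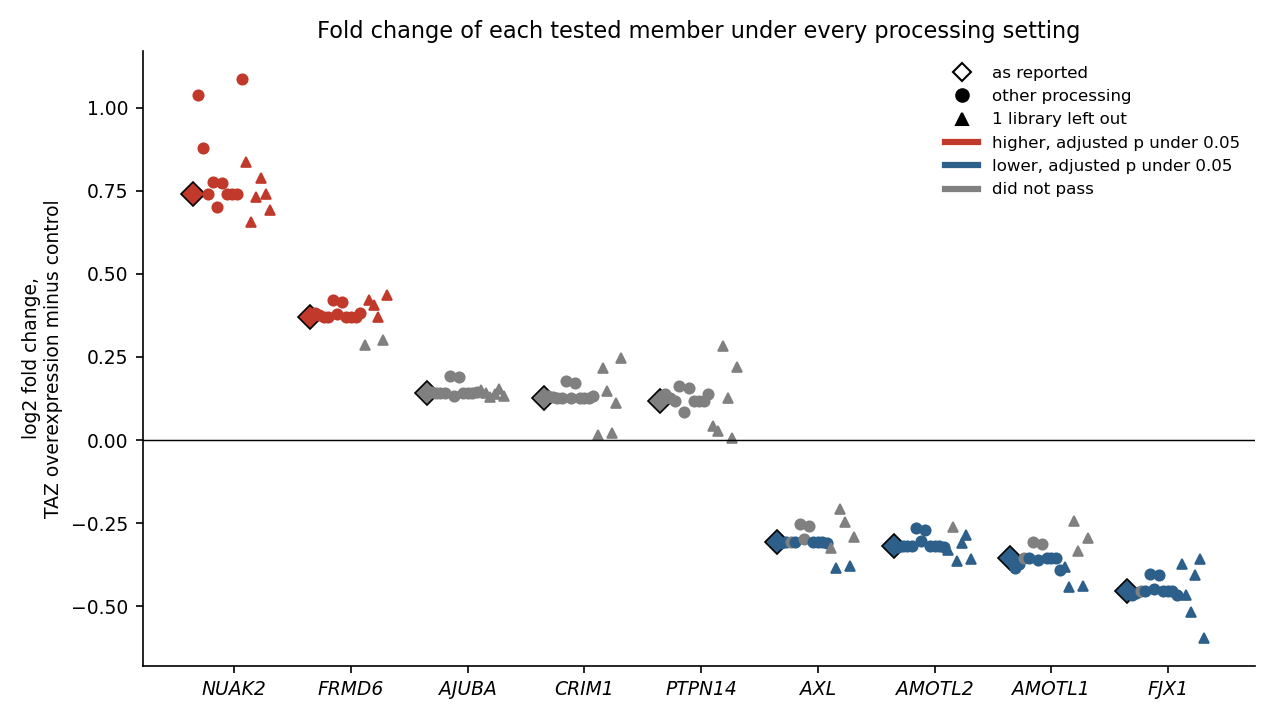
Log2 fold change, TAZ overexpression minus control, of the 9 tested members as reported (large diamonds), under other processing (circles) and with 1 library left out (triangles); red passed higher, blue passed lower and grey did not pass. No tested member changed sign, the NUAK2 points all passed, and AXL and AMOTL1 hold the most grey points among the members that fell.

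Scaling bears on the members that fell. Median-ratio scaling of the libraries moved the median log2 fold change over all tested genes to -0.0044, and under it 2 members fell (AMOTL2 and FJX1) and the same 2 rose. With that scaling the share of higher genes among all those called was 52.4%, in place of 41.6%.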

How the data were processed

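RNA sequencing libraries from 6 samples of goat adipose mesenchymal stem cells were used, 3 with TAZ overexpression and 3 controls, grouped by sample title. The authors deposited FPKM values in 1 table per group. The submitters' processing notes name fastp, HISAT2 and HTSeq. Versions, build, use of strand and handling of multiply mapped reads: not given in the sources used here. Coordinates are therefore left out, and values of near-identical or overlapping genes are uncertain. Each table had 16285 rows, of which 23 held a date in place of a symbol and were left out; the other 16262 symbols matched RefSeq assembly ARS1.2. Library totals and gene lengths were solved from the FPKM steps (steps of 0.5 fragment, tolerance 0.02; a length for 99.99% of rows above 0), and the recovered fragments made up 99.71% to 99.75% of the totals.

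Values entered limma 3.58.1 (R 4.3.3) as log2(FPKM + 1) with no further scaling, empirical Bayes with a mean-variance trend, two-sided; the code was tested on simulated data. Ratios of paralogs were compared by exact permutation. No search for outlying libraries was made in groups of 3. Named genes were the 10 members, WWTR1, YAP1 and the TEAD genes, in each further list the 4 genes of smallest adjusted p plus the first of the rarer direction, relatives of each member, and the 2 genes most like NUAK2 and AMOTL2. The members and lists were chosen with earlier results of these data known. Promoter and protein sequences were not used here. The alternatives tried were no filter or a mean of at least 5 FPKM, pseudocounts of 0.1 or 0.5, rescaling without the top 50 genes, quantile normalization or median-ratio scaling, no trend, robust fitting, the replicate block, voom on fragments, an adjusted p of 0.01, and leaving out each library.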

Additional observations from a re-analysis of the deposited data

How the results depend on the processing

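No tested member changed sign in any alternative run. The number of members called was 3 with no filter (2 higher, 1 lower) and 1 at an adjusted p of 0.01 (NUAK2, with 0 lower), and 4 to 5 when 1 library was left out (1 to 2 higher, 2 to 4 lower). With the stricter filter 1 of 7 tested was higher, since NUAK2 and PTPN14 were not tested, and the median log2 fold change was -0.31. Median-ratio scaling and rescaling without the top 50 genes each left 2 lower. Partners and paralogs called numbered 5 to 8 with 1 library left out. Over all genes 2612 passed at 0.01, of which 1408 were lower. Signs of values that did not pass turned for ANKRD1 without TAZ replicate 1 or control replicate 1 (-0.10 and -0.18), TEAD3 without control replicate 3 (-0.0099), LIMD1 without TAZ replicate 3 (0.011), and NUAK1 under median-ratio scaling (0.027), rescaling (0.023), and without TAZ replicate 2 (0.027), TAZ replicate 3 (0.016) or control replicate 3 (0.057). Leaving out 1 library, these values ran from -0.18 to 0.13 for ANKRD1, -0.0099 to 0.086 for TEAD3, -0.33 to 0.011 for LIMD1 and -0.11 to 0.057 for NUAK1. The cause of these changes was not tested.

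Same-numbered libraries did not deviate together (r = -0.436, -0.112 and -0.403 for numbers 1, 2 and 3 over 10750 genes), so the number was not taken as a pairing. Each library correlated best with one of another number (r from 0.534 to 0.691), for which the labels give no basis, and no such pairs were fitted. The replicate block left 6 members and 3512 genes called, in place of 6 and 4074. ANKRD1, AMOT and BMPER rest on at most 29 fragments per library.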
